A study of Homo sapiens with 4 samples.

Results

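The genes described here are 33 genes of the ATF4 and amino acid stress response, ATF4 itself and genes linked to it, found by gene symbol among 46427 rows of the deposited count tables. All 33 were found and all 33 passed the filter on low counts, among 16738 genes tested. They were measured in NCI-H1944 (H1944), a human lung cancer cell line, after treatment with BAY1217389 or with DMSO, the solvent used as vehicle, with 2 libraries labelled as biological replicates in each group. BAY1217389 inhibits MPS1 (TTK), a kinase of the spindle checkpoint that keeps dividing cells in mitosis until their chromosomes are attached. Cells of both groups were exposed for 48 h, the medium was exchanged, and RNA was taken 24 h later. The dose is not given in the sources used here, and a single cell line was studied. The stated aim of the series concerns negative regulators of STING, an adaptor of cytosolic DNA sensing.

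ATF4 is a basic leucine zipper transcription factor at the centre of the integrated stress response. Stress kinases phosphorylate the translation initiation factor eIF2, which lowers general protein synthesis while the ATF4 mRNA is translated more. ATF4 then pairs with C/EBP proteins and raises genes for amino acid synthesis and uptake, mitochondrial folate metabolism and, under lasting stress, cell death. Because ATF4 is controlled mainly through translation and protein stability, its mRNA level is not a measure of ATF4 protein.

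The DNA element to which ATF4 and C/EBP dimers bind is called the C/EBP-ATF response element. Its core TGATGNAA, searched on both strands, was present in the promoter window of 8 of the 26 members that have a window in the RefSeq table (30.8%), against 4.46% of all 27305 genes with a window. A window ran from 250 bases before to 50 bases after an annotated transcription start in GRCh38.p14, and some genes have several windows. Counted by window, 10 of 43 member windows (23.3%) and 3.62% of all 35116 windows held the core. The MTHFD1L windows with the core overlap and hold the same site, so the count by window is not a separate check. The core occurred in the windows of 1 of 5 members that were higher after BAY1217389, 6 of 16 that were lower and 1 of 5 that did not pass the test. Stretches of 4 of these 8 genes follow, shown because they place nearly the same core beside genes that changed in opposite directions or did not pass. They read 5′ to 3′ along the strand of the gene, with the matched core in capitals, and on the other strand the core reads TTNCATCA.
CHAC1, higher after BAY1217389, chr15:40953251-40953280, plus strand: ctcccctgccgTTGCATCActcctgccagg
ASNS, lower after BAY1217389, chr7:97872458-97872487, minus strand: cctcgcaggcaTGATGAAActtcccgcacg
CEBPG, lower after BAY1217389, chr19:33374060-33374089, plus strand: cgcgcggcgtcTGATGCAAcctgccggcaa
SLC7A1, which did not pass, chr13:29595663-29595692, minus strand: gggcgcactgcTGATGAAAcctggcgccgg
The core began 209 bases before the annotated start in CHAC1, 68 before it in ASNS, 42 before it in CEBPG and 8 bases into the transcript in SLC7A1. Of the 30 bases shown, all 30 in CHAC1 and ASNS, 26 in SLC7A1 and 0 in CEBPG also lie in GENCODE 29 exons of the same gene. The core of the antioxidant response element, TGACNNNGC, which NRF2 binds, was in windows of 12 of 26 members (46.2%) and of 16.1% of all genes. By window it was in 14 of 43 member windows (32.6%) and in 13.3% of all windows. The interferon element core GAAANNGAA was in windows of 0 of 26 members and of 9.86% of all genes. A match is a description of the letters in these windows and was not tested as a binding site.

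Reads counted in genes came to 43661342 and 43067647 in the BAY1217389 libraries, and to 39332931 and 38904473 in the DMSO libraries. Levels are given as counts per 1000000 reads (CPM), scaled to library size with TMM factors of 0.994 to 1.01. Pearson correlations of log-CPM across genes, which are not independent replicates, were 0.992 between the BAY1217389 libraries, 0.989 between the DMSO libraries and 0.979 to 0.980 between groups. Of 10 markers of lung adenocarcinoma epithelium, the keratins KRT7, KRT8 and KRT18 and the cadherin CDH1 were well expressed, while NKX2-1, KRT19 and SFTPB had 0 reads and EPCAM reached 2.66 CPM after BAY1217389 and 2.19 CPM in DMSO. The leukocyte marker PTPRC had 0 reads, but the summed level of 5 leukocyte markers was 162 and 165 CPM after BAY1217389 and 69.4 and 72.2 CPM in DMSO, nearly all of it from CD68, a gene singled out after its values were seen. The summed epithelial markers were 4790 and 4950 CPM after BAY1217389 and 4126 and 4134 CPM in DMSO. The 7 fibroblast markers summed to 46.3 and 45.8 CPM after BAY1217389 and 33.4 and 29.7 CPM in DMSO, with PDGFRA and COL1A2 at 0. Nearly all of that sum came from DCN, LUM and COL1A1, named after their values were seen. Each was higher after BAY1217389 (log2 fold changes 0.47, 0.61 and 0.59, edgeR adjusted p = 3.67e-05, 8.53e-06 and 0.00282). The sums of 4 squamous or basal markers (4.54 and 5.33 CPM after BAY1217389, 2.54 and 3.01 CPM in DMSO, KRT5 at 0), 4 endothelial markers (2.00 and 1.92 CPM after BAY1217389, 0.787 and 0.792 CPM in DMSO) and 5 neuroendocrine markers (6.47 and 5.26 CPM after BAY1217389, 4.54 and 4.85 CPM in DMSO) were also higher after BAY1217389. Among the squamous or basal markers KRT6A was higher, at 2.71 and 3.04 CPM after BAY1217389 and 0.279 and 0.766 CPM in DMSO (log2 fold change 2.45, edgeR adjusted p = 5.54e-07). TP63 and DSG3 overlapped between groups. The part of these shifts in the results was not tested. In RNA from whole cultures, a change in every cell and a change in the share of cells that express a gene cannot be told apart.

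After BAY1217389 most of the module was lower by small amounts. The 6 members that rose were PPP1R15A, DDIT3, CHAC1, SLC38A2, GPT2 and STC2. Of the 8 transcription factors and stress effectors, 3 rose and 4 fell. Of 33 members, 20 fell (60.6%) and 6 rose (18.2%), and 7 did not pass. Among all genes tested, 13.3% were lower and 14.5% higher, 27.8% in either direction, where a gene passed at an adjusted p (Benjamini-Hochberg) under 0.05 in the quasi-likelihood test of edgeR. Well expressed genes pass more easily, and among genes with a mean of at least 30 CPM, a background added after seeing the data, 24.4% were lower and 20.9% higher. The median log2 fold change of the members was -0.13, against 0.00 for all genes tested and -0.02 for genes of at least 30 CPM. In 21 members both BAY1217389 libraries lay below both DMSO libraries and in 8 they lay above, where 30.5% of all genes tested lay below and 30.5% above, and 4 members overlapped. The changes were modest. In 29 members the log2 fold change was smaller than 0.25 in size (a rise of 18.9%), as in 66.3% of all genes, and 0 members reached 1, where 5.31% of all genes did. Tested against a fold change of 1.2, only PPP1R15A was higher and only PHGDH lower among the members, and 5.32% of all genes were higher and 1.81% lower. Together the 33 genes held 1.44 and 1.46% of reads after BAY1217389 and 1.55 and 1.56% in DMSO.

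**Figure D1:**
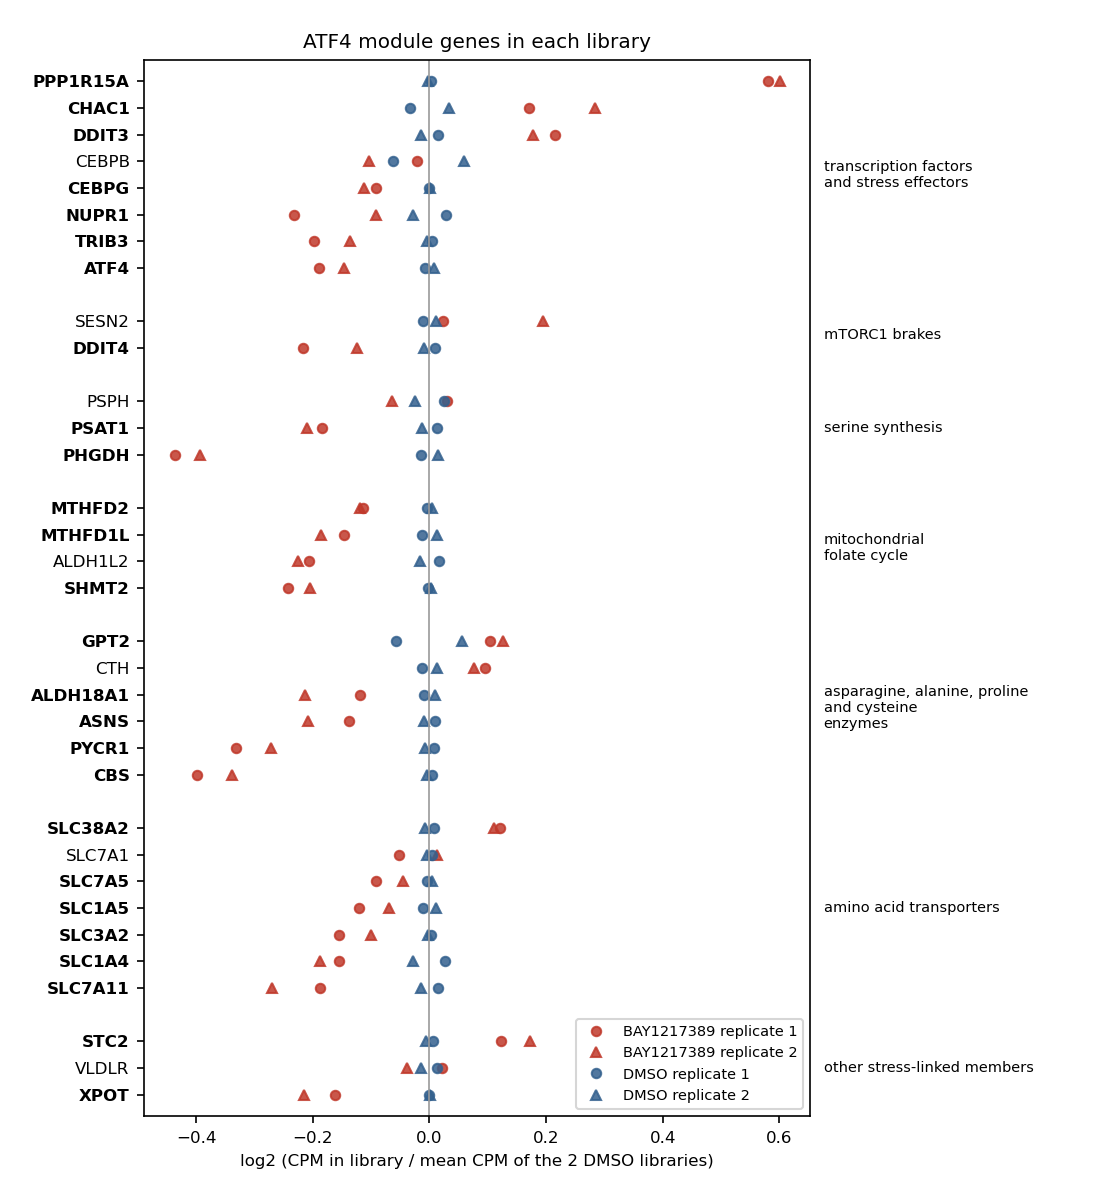
CPM of each member in each of the 4 libraries, as log2 of its ratio to the mean of the 2 DMSO libraries, with members grouped by role and names in bold where the edgeR test was passed. PPP1R15A stands farthest to the right and PHGDH farthest to the left, and the BAY1217389 points of 20 fallen members lie left of their DMSO points.

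The module was strongly expressed in these cells in both groups. Per kilobase of transcript, with lengths from GENCODE 29 transcripts for 32 members, 19 members lay above the 90th percentile of 14696 tested genes in DMSO and 31 lay above the median. The highest was SLC7A5, a large neutral amino acid transporter, at 936 and 966 CPM per kb after BAY1217389 and 994 and 1001 CPM per kb in DMSO. Its partner chain SLC3A2 followed at 713 and 741 CPM per kb after BAY1217389 and 795 and 792 CPM per kb in DMSO, and ATF4 itself at 513 and 529 CPM per kb after BAY1217389 and 582 and 589 CPM per kb in DMSO. ALDH1L2, a mitochondrial folate enzyme, was the lowest at 0.496 and 0.489 CPM per kb after BAY1217389 and 0.578 and 0.565 CPM per kb in DMSO.

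**Figure D2:**
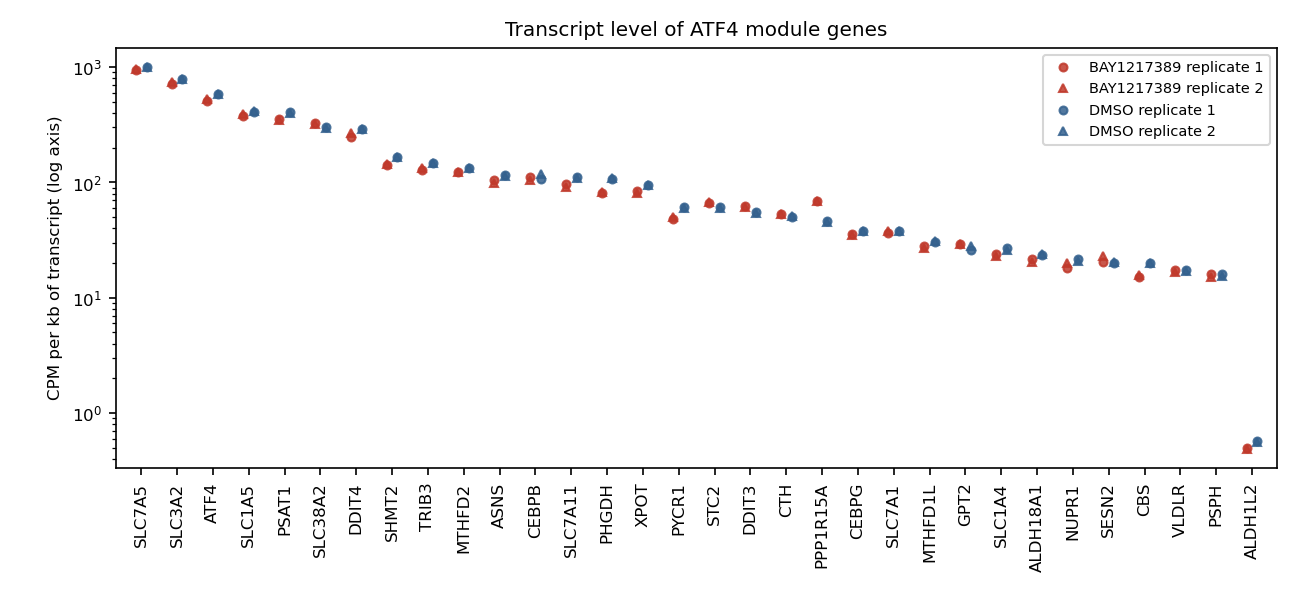
Level of 32 members in each library in CPM per kb of transcript, on a log axis, ordered by the DMSO mean. SLC7A5 was at 936 and 966 CPM per kb after BAY1217389 and ALDH1L2 at 0.496 and 0.489, and the red BAY1217389 points stay close to the blue DMSO points for each gene.

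ATF4 mRNA fell slightly. It was at 883 and 909 CPM after BAY1217389 and at 1001 and 1012 CPM in DMSO, groups that do not overlap (log2 fold change -0.17, SE 0.02, edgeR adjusted p = 6.18e-07). CEBPG, a C/EBP family protein that pairs with ATF4, was at 142 and 140 CPM after BAY1217389 and at 151 and 152 CPM in DMSO (log2 fold change -0.10, edgeR adjusted p = 0.0277). That call was lost without DMSO replicate 1 (adjusted p = 0.136), without DMSO replicate 2 (0.144) and without BAY1217389 replicate 2 (0.104), and the adjusted p ran between 0.0145 and 0.144 over the 12 alternatives. CEBPB, another C/EBP partner, overlapped between groups, with 217 and 205 CPM after BAY1217389 and 211 and 230 CPM in DMSO (log2 fold change -0.06, 95% interval -0.14 to 0.02), and it passed as lower without DMSO replicate 1 (log2 fold change -0.12, adjusted p = 0.042, range 0.042 to 0.981).

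The module's feedback phosphatase subunit and 2 of its stress effectors, DDIT3 and CHAC1, rose. PPP1R15A encodes GADD34, the phosphatase subunit that removes the phosphate from eIF2 and so ends the stress response. It rose to 163 and 165 CPM after BAY1217389, against 109 and 109 CPM in DMSO, the largest change of any member in either direction (1.51-fold, log2 fold change 0.59, SE 0.04, edgeR adjusted p = 1.4e-15). By the size of its change it ranked 2008 of the 16738 genes. DDIT3 encodes CHOP, a C/EBP family factor linked to cell death under stress. Its level was 67.3 and 65.6 CPM after BAY1217389 and 58.6 and 57.4 CPM in DMSO, a rise of 14.6% (log2 fold change 0.20, SE 0.05, edgeR adjusted p = 0.00143). CHAC1, an enzyme that breaks down glutathione, was at 45.4 and 49.1 CPM after BAY1217389 and at 39.4 and 41.3 CPM in DMSO (log2 fold change 0.23, SE 0.06, edgeR adjusted p = 0.00205), a call lost without BAY1217389 replicate 2 (0.0637, range 0.000121 to 0.0637).

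Of 4 other regulators induced by ATF4, TRIB3, NUPR1 and DDIT4 fell and SESN2 did not pass. Lower calls made up 13.3% of all genes tested and 24.4% of genes of at least 30 CPM. TRIB3, a pseudokinase that binds ATF4 and limits it, was at 321 and 335 CPM after BAY1217389 and at 369 and 368 CPM in DMSO (log2 fold change -0.17, SE 0.03, edgeR adjusted p = 2.61e-05). NUPR1, a small stress-induced nuclear protein, was at 55.1 and 60.7 CPM after BAY1217389 and at 65.9 and 63.4 CPM in DMSO (log2 fold change -0.16, edgeR adjusted p = 0.0152). The NUPR1 call was lost without BAY1217389 replicate 1 (log2 fold change -0.10, adjusted p = 0.24) and without DMSO replicate 1 (0.132) (range 0.00513 to 0.24). DDIT4, which restrains the growth kinase complex mTORC1, was at 437 and 467 CPM after BAY1217389 and at 512 and 505 CPM in DMSO (log2 fold change -0.17, SE 0.03, edgeR adjusted p = 2.27e-05). SESN2, a leucine sensor that also restrains mTORC1, did not pass, at 70.8 and 79.7 CPM after BAY1217389 and 69.0 and 70.2 CPM in DMSO (log2 fold change 0.11, edgeR adjusted p = 0.0946). Its BAY1217389 libraries stood apart from each other, and without BAY1217389 replicate 1 it was called higher (log2 fold change 0.19, adjusted p = 0.00941, range 0.00941 to 0.763).

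Set against ATF4 in the same library, DDIT3 and PPP1R15A stood higher after BAY1217389. The ratio of DDIT3 to ATF4, both per kb, was 0.123 and 0.116 after BAY1217389 and 0.0944 and 0.0914 in DMSO. The ratio of PPP1R15A to ATF4 was 0.133 and 0.131 after BAY1217389 and 0.0789 and 0.0776 in DMSO. Both genes lay above and ATF4 lay below DMSO in both BAY1217389 libraries, so the ratios could not overlap and restate those levels. With 2 libraries a group, an exact permutation test of a single value could not pass 0.05, so the ratios are given without a test.

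**Figure D3:**
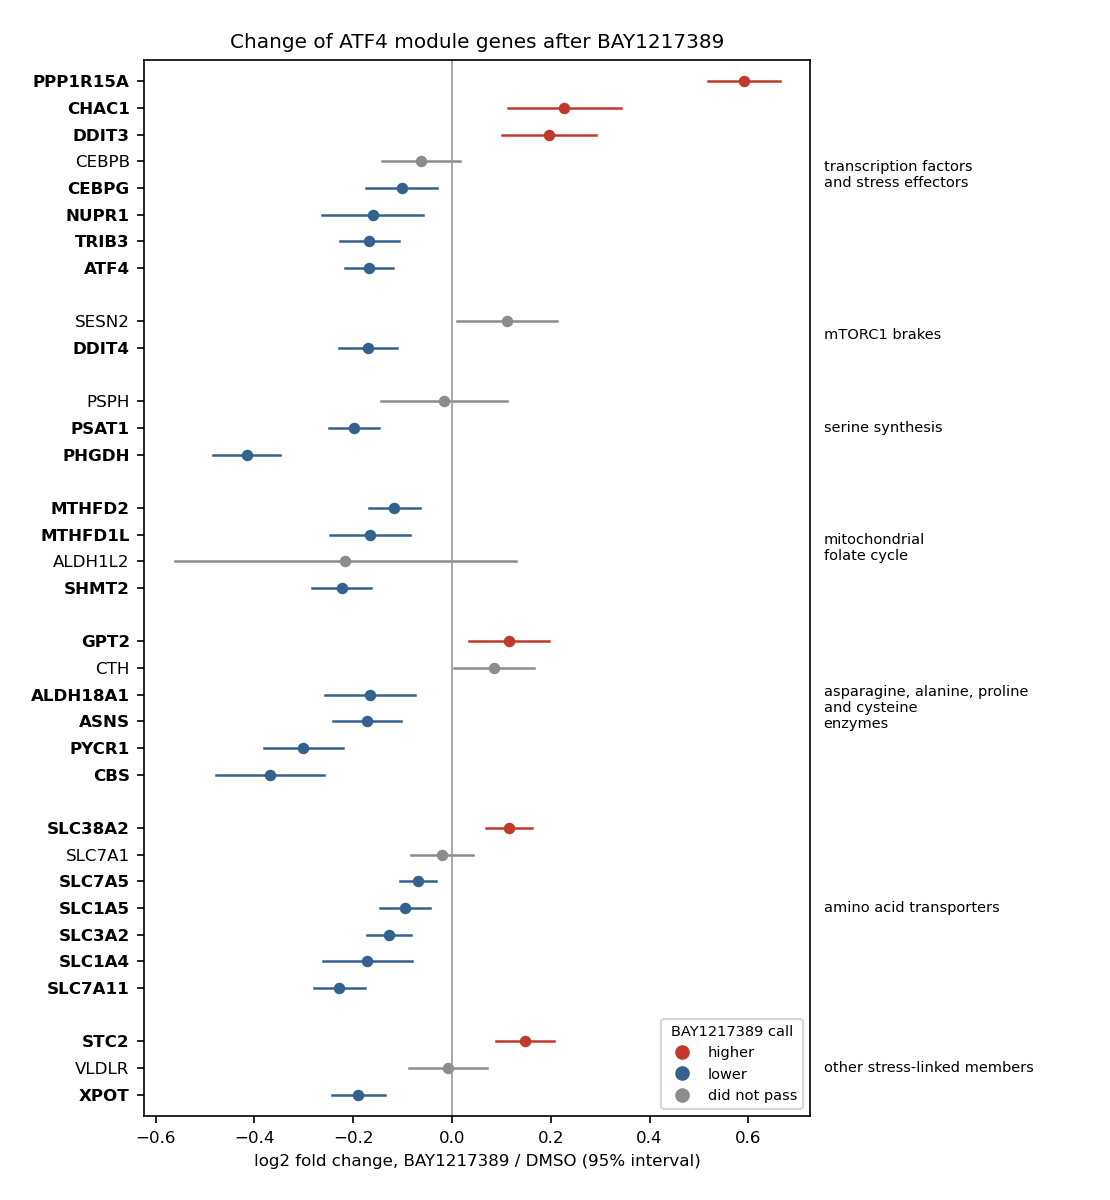
Fitted log2 fold change, BAY1217389 over DMSO, of each of the 33 members with its 95% interval, grouped by role and coloured by the edgeR call. PPP1R15A lies at 0.59, the other risen members between 0.12 and 0.23, and the fallen members between -0.42 and -0.07.

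Of the 3 serine synthesis genes, PHGDH and PSAT1 fell and PSPH did not pass, where 13.3% of all genes tested were lower. For genes of at least 30 CPM that share was 24.4%. PHGDH, which starts serine synthesis, fell to 169 and 174 CPM after BAY1217389, against 226 and 231 CPM in DMSO. That was the largest fall among the members (a 25.0% lower level, log2 fold change -0.42, SE 0.03, edgeR adjusted p = 2.15e-12). PSAT1, the enzyme of the next step, was at 638 and 626 CPM after BAY1217389 and at 731 and 718 CPM in DMSO (log2 fold change -0.20, SE 0.02, edgeR adjusted p = 8.04e-08). PSPH, the enzyme of the last step, overlapped between groups, with 34.1 and 32.0 CPM after BAY1217389 and 34.0 and 32.8 CPM in DMSO (log2 fold change -0.02, 95% interval -0.14 to 0.11).

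Serine feeds the mitochondrial folate cycle, where 3 of 4 genes fell and ALDH1L2 did not pass. The share lower was 13.3% for all genes tested and 24.4% for genes of at least 30 CPM. SHMT2, which splits serine into glycine and a carbon unit, was at 283 and 290 CPM after BAY1217389 and at 334 and 335 CPM in DMSO (log2 fold change -0.22, SE 0.03, edgeR adjusted p = 1.92e-07). MTHFD2, the dehydrogenase and cyclohydrolase of the cycle, was at 550 and 548 CPM after BAY1217389 and at 593 and 597 CPM in DMSO (log2 fold change -0.12, edgeR adjusted p = 0.000495). MTHFD1L, which releases formate, was at 88.1 and 85.7 CPM after BAY1217389 and at 96.7 and 98.3 CPM in DMSO (log2 fold change -0.17, edgeR adjusted p = 0.00165). In these 3 genes the groups did not overlap. ALDH1L2 had 3.74 and 3.69 CPM after BAY1217389 and 4.37 and 4.27 CPM in DMSO, a log2 fold change of -0.22 that did not pass at this low level (95% interval -0.56 to 0.13).

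Enzymes for the other amino acids were mostly lower, with 4 of 6 lower (66.7%) and 1 higher (16.7%). Over all genes tested the shares were 13.3% and 14.5%, and over genes of at least 30 CPM 24.4% and 20.9%. PYCR1, which completes proline synthesis, fell to 88.28 and 92.05 CPM after BAY1217389, against 112 and 110 CPM in DMSO (log2 fold change -0.30, SE 0.04, edgeR adjusted p = 1.65e-07). ALDH18A1, which starts proline synthesis, was at 72.95 and 68.38 CPM after BAY1217389 and at 78.8 and 79.8 CPM in DMSO (log2 fold change -0.17, edgeR adjusted p = 0.0046), and it did not pass without BAY1217389 replicate 2 (0.087, range 0.00259 to 0.087). ASNS, asparagine synthetase, was at 199 and 190 CPM after BAY1217389 and at 221 and 218 CPM in DMSO (log2 fold change -0.17, SE 0.03, edgeR adjusted p = 0.000121). The summed CPM of ASNS, its read-through CZ1P-ASNS and its pseudogene ASNSP1 gave a log2 ratio of group means of -0.14.

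The transsulfuration enzymes, which turn homocysteine into cysteine, did not move together. CBS, the enzyme that starts the route, fell to 39.2 and 40.8 CPM after BAY1217389, against 51.8 and 51.5 CPM in DMSO (log2 fold change -0.37, SE 0.05, edgeR adjusted p = 1.15e-06). Reads of CBS cannot be firmly told apart from those of the near-identical copy CBSL, which was at 31.7 and 32.7 CPM after BAY1217389 and 42.1 and 41.2 CPM in DMSO, and the summed pair gave a log2 ratio of group means of -0.37. CTH, which completes the route, was at 97.0 and 95.7 CPM after BAY1217389 and at 89.97 and 91.59 CPM in DMSO, above DMSO in both libraries without passing (log2 fold change 0.09, edgeR adjusted p = 0.11). GPT2, the mitochondrial alanine aminotransferase, was at 119 and 121 CPM after BAY1217389 and at 107 and 115 CPM in DMSO (log2 fold change 0.12, edgeR adjusted p = 0.0281). The DMSO libraries of GPT2 differed from each other by more than the BAY1217389 libraries did, and its call was lost without DMSO replicate 1 (log2 fold change 0.06, adjusted p = 0.52), without BAY1217389 replicate 1 (0.0888) and without BAY1217389 replicate 2 (0.124) (range 0.00283 to 0.52).

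Among 7 amino acid transporters, 5 fell (71.4%), 1 rose (14.3%) and 1 did not pass. Of all genes tested 13.3% were lower and 14.5% higher, and of genes of at least 30 CPM 24.4% and 20.9%. SLC7A11, the cystine and glutamate exchanger that supplies glutathione synthesis, was at 930 and 879 CPM after BAY1217389 and at 1070 and 1048 CPM in DMSO (log2 fold change -0.23, SE 0.03, edgeR adjusted p = 1.77e-08). SLC3A2, the heavy chain that SLC7A11 and SLC7A5 need at the cell surface, was at 1421 and 1477 CPM after BAY1217389 and at 1585 and 1579 CPM in DMSO (log2 fold change -0.13, SE 0.02, edgeR adjusted p = 2.32e-05). The ratio of SLC7A11 to SLC3A2 per kb was 0.135 and 0.123 after BAY1217389 and 0.139 and 0.137 in DMSO, and that of SLC7A5 to SLC3A2 was 1.31 and 1.30 after BAY1217389 and 1.25 and 1.26 in DMSO. The first ratio was lower and the second higher after BAY1217389, and neither overlapped between groups. In the first, BAY1217389 replicate 1 (0.135) lay closer to the DMSO libraries than to BAY1217389 replicate 2 (0.123). Such a lack of overlap was common for the CPM of single genes, of which 30.5% lay below and 30.5% above. Neither ratio was tested.

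SLC7A5 had the smallest change that passed, at 4246 and 4384 CPM after BAY1217389 and 4512 and 4541 CPM in DMSO (log2 fold change -0.07, edgeR adjusted p = 0.00379), and it did not pass without DMSO replicate 1 (0.0747) or without DMSO replicate 2 (0.128) (range 0.000264 to 0.128). SLC1A4, a carrier of serine and alanine, was at 68.6 and 67.2 CPM after BAY1217389 and at 77.94 and 75.01 CPM in DMSO (log2 fold change -0.17, edgeR adjusted p = 0.00315). SLC1A5, a glutamine carrier, was at 706 and 732 CPM after BAY1217389 and at 762 and 773 CPM in DMSO (log2 fold change -0.10, edgeR adjusted p = 0.00359). SLC1A4 did not pass without DMSO replicate 1 (0.0733, range 0.00163 to 0.0733), nor SLC1A5 without DMSO replicate 2 (0.0937, range 0.00115 to 0.0937). SLC38A2, a carrier of small neutral amino acids that is induced when amino acids run short, was the exception that rose. It was at 997 and 990 CPM after BAY1217389 and at 921 and 912 CPM in DMSO (log2 fold change 0.12, SE 0.02, edgeR adjusted p = 0.000155). SLC7A1, the cationic amino acid carrier, overlapped between groups, with 267 and 279 CPM after BAY1217389 and 278 and 276 CPM in DMSO (log2 fold change -0.02, 95% interval -0.08 to 0.04).

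The remaining members went each their own way. STC2, a secreted glycoprotein induced by stress, was at 353 and 365 CPM after BAY1217389 and at 325 and 323 CPM in DMSO (log2 fold change 0.15, SE 0.03, edgeR adjusted p = 0.000144). XPOT, the exporter of tRNA from the nucleus, was at 540 and 521 CPM after BAY1217389 and at 605 and 605 CPM in DMSO (log2 fold change -0.19, SE 0.03, edgeR adjusted p = 4.97e-07). VLDLR, a lipoprotein receptor, overlapped between groups, with 108 and 104 CPM after BAY1217389 and 108 and 106 CPM in DMSO (log2 fold change -0.01, 95% interval -0.09 to 0.07).

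Upstream of ATF4, the kinase gene EIF2AK2 stood apart. EIF2AK2 encodes PKR, the eIF2 kinase that senses double-stranded RNA and is itself an interferon-induced gene. It rose to 422 and 404 CPM after BAY1217389, against 123 and 122 CPM in DMSO (log2 fold change 1.75, SE 0.03, edgeR adjusted p = 3.27e-31). Of the other eIF2 kinases, EIF2AK1, the kinase that responds to haem shortage, fell by 0.13 on the log2 scale (edgeR adjusted p = 0.0055, range 0.00256 to 0.0689, named after its values were seen), and EIF2AK3 and EIF2AK4, which respond to ER stress and uncharged tRNA, did not pass, with log2 fold changes of 0.04 and 0.01. Among all genes tested 14.5% were higher and 13.3% lower, and among genes of at least 30 CPM 20.9% and 24.4%. Of 18 listed genes of the kinases and the eIF2 machinery, 2 rose (11.1%) and 5 fell (27.8%), and the median log2 fold change was -0.01. PPP1R15B, the constitutive counterpart of PPP1R15A, was the other gene that rose, at 165 and 160 CPM after BAY1217389 and 141 and 136 CPM in DMSO (log2 fold change 0.23, edgeR adjusted p = 4.5e-06). EIF2S3, a subunit of eIF2, fell by 0.28, and DELE1, which relays mitochondrial stress to EIF2AK1, by 0.31 on the log2 scale.

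Among 12 related leucine zipper factors, 1 rose (8.33%) and 4 fell (33.3%), and their median log2 fold change was -0.01. The shares were 14.5% higher and 13.3% lower for all genes tested, and 20.9% and 24.4% for genes of at least 30 CPM. ATF3, a stress factor induced by ATF4 and by other routes, rose to 48.1 and 46.4 CPM after BAY1217389, against 25.7 and 25.3 CPM in DMSO (log2 fold change 0.89, SE 0.06, edgeR adjusted p = 2.3e-14). ATF5 (log2 fold change -0.33), the ER stress sensor ATF6 (-0.23) and CEBPA (-0.43) fell. Of 26 further ATF4 targets, a list that again holds ATF3 and ATF5, 5 were higher (19.2%) and 10 lower (38.5%), with a median of -0.09. WARS1, the tryptophan tRNA synthetase, which interferon also induces, rose to 642 and 653 CPM after BAY1217389, against 444 and 434 CPM in DMSO (log2 fold change 0.56, SE 0.03). GDF15, a stress cytokine, rose by 0.23, and NIBAN1, a stress-induced protein, fell by 0.44 on the log2 scale.

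Metabolic genes outside the 33 members are set against the 13.3% lower and 14.5% higher of all genes tested and the 24.4% and 20.9% of genes of at least 30 CPM. Of 14 further serine, glycine and folate genes, 4 were lower (28.6%) and 1 was higher (median log2 fold change -0.04). The cytosolic enzyme SHMT1 (-0.41) fell, as did GCSH of the glycine cleavage system (-0.29), whereas the glycine decarboxylase GLDC of the same system rose, at 43.6 and 43.7 CPM after BAY1217389 and 33.6 and 33.7 CPM in DMSO (0.38). Of 20 further amino acid and glutathione enzymes, 9 were lower (45.0%) and 2 higher (median -0.12). The largest fall that passed among them was that of GOT1, the cytosolic aspartate aminotransferase, at 71.5 and 71.9 CPM after BAY1217389 and 108 and 104 CPM in DMSO (log2 fold change -0.56, SE 0.04, edgeR adjusted p = 1.75e-13). AHCY (-0.31) and MAT2A (-0.28) of the methionine cycle and the branched-chain aminotransferase BCAT2 (-0.30) fell as well.

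Of 15 tested further amino acid transporters, 2 were higher and 3 lower (20.0%), a share between those backgrounds (median log2 fold change -0.05). The glutamate carrier SLC1A1 rose to 5.62 and 5.05 CPM after BAY1217389, against 2.64 and 2.17 CPM in DMSO (1.15, SE 0.18), and the light chain SLC7A7 (-0.30) and the glutamine carrier SLC38A1 (-0.15) fell. SLC7A6 was higher by 0.22 (edgeR adjusted p = 0.00308), a call lost without BAY1217389 replicate 1 (0.053, range 0.000353 to 0.053). Of 21 genes of amino acid sensing by mTORC1, 1 was higher (4.76%), 4 were lower (19.0%) and 16 did not pass (median -0.08). AKT1S1, an inhibitory subunit of mTORC1, fell by 0.15. The calls for the GTPase genes RRAGC (0.18, edgeR adjusted p = 0.0111) and RHEB (-0.12, 0.019) and for TSC2 (-0.15, 0.0409) each were lost when a single library was left out. Without DMSO replicate 2 the adjusted p were 0.146 for RRAGC, 0.259 for RHEB and 0.099 for TSC2. RRAGC also did not pass without BAY1217389 replicate 2 (0.113), and RHEB (0.0883) and TSC2 (log2 fold change -0.06, 0.505) did not pass without BAY1217389 replicate 1, with ranges of 0.00196 to 0.146 for RRAGC, 0.01 to 0.259 for RHEB and 0.00141 to 0.505 for TSC2. Over the 122 tested genes of these lists that are not members, 13 were higher (10.7%) and 37 lower (30.3%), against 14.5% and 13.3% of all genes tested and 20.9% and 24.4% of genes of at least 30 CPM, and their median log2 fold change was -0.06.

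**Figure D4:**
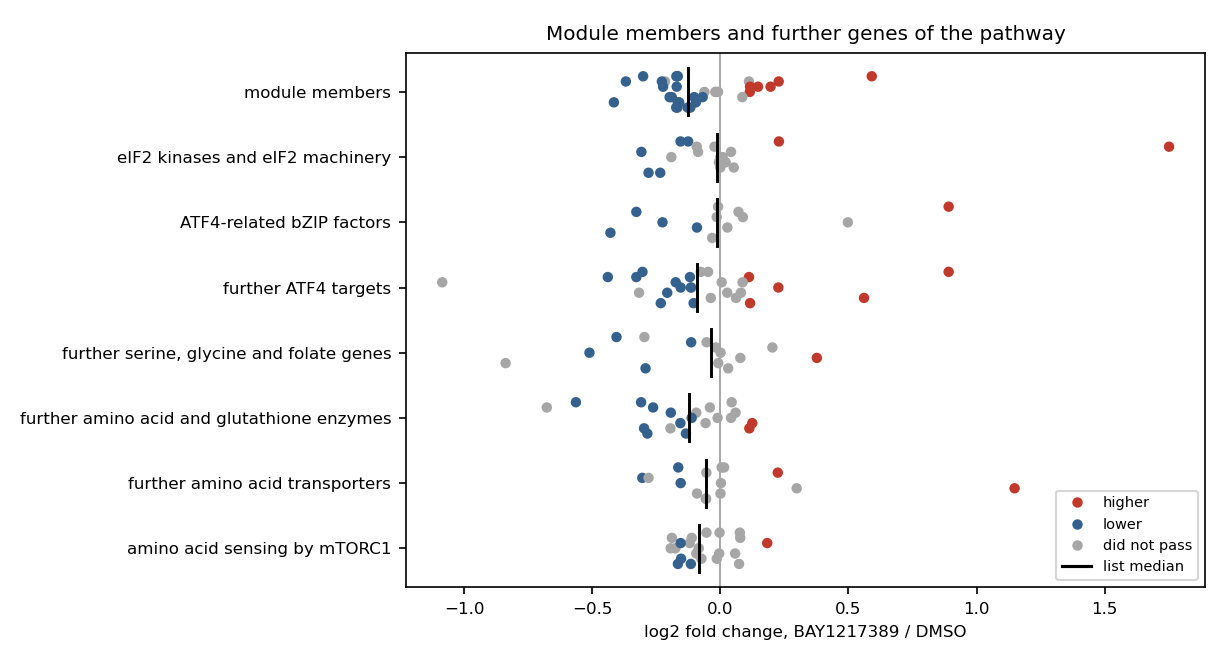
Log2 fold change, BAY1217389 over DMSO, of the 33 members and of the tested genes of 7 further lists, coloured by the edgeR call, with a black bar at each list's median. EIF2AK2 at 1.75 and ATF3 at 0.89 lie far to the right in their lists, while the members' median is -0.13.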

How the data were processed

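RNA libraries were made with the TruSeq Stranded mRNA kit, per the labels' protocols. The deposited columns are headed Read_Count and hold 1 whole number for each gene and library, beside RefSeq identifiers and symbols. They were assumed to be raw counts. The submitters' processing notes name hg18, while no aligner, counter or strand setting is named in the sources used here. Values of overlapping or near-identical genes are therefore uncertain. Another 4 columns of per-sample values in the workbooks match no sample of the series and were not used.

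The counts were fitted with edgeR 4.0.16 in R 4.3.3: filterByExpr, TMM, glmQLFit with robust dispersions and glmQLFTest, two-sided, Benjamini-Hochberg over 16738 genes, threshold 0.05, 2 residual and 31.1 prior degrees of freedom. Alternatives used DESeq2 1.42.0 and limma 3.58.1. Promoter windows came from RefSeq (GRCh38.p14, 26 of 33 members matched by symbol). CPM of a count of 0 allows up to 3 reads, at most 0.0771 CPM in a library, which covers counting error only. Replicates are taken from the labels, so p-values refer to the spread between these libraries only. For a single gene that spread is mostly borrowed from all genes, with 31.1 prior against 2 residual degrees of freedom. Beside the 33 members, up to 4 genes of each further list with the smallest p-values were named, except 1 that is not reported here. Members, lists and tests were chosen with earlier results of these data known.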

Additional observations from a re-analysis of the deposited data

How the results depend on the processing

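Member counts stayed within 1.5 times of 6 higher and 20 lower under 12 of 13 alternatives, and the fold test of 1.2 left 1 higher and 1 lower (all genes 891 and 303, further pathway genes 4 and 4). DESeq2 called 1400 of all genes lower, against 2232. The members' median log2 fold change was -0.10 with a filter of 5 CPM, -0.14 without TMM and -0.13 to -0.12 when a library was left out, and that of the further pathway genes -0.038 with the filter of 5 CPM and -0.068 without TMM. CEBPG, NUPR1 and GPT2 did not pass with DESeq2 (adjusted p = 0.0861, 0.0987 and 0.111), nor did RRAGC, RHEB and TSC2 (0.0751, 0.0786 and 0.149). CEBPG did not pass with the filter of 5 CPM (0.0548), CEBPG, GPT2 and TSC2 did not without a filter (0.0508, 0.0605 and 0.0921), and GPT2 did not without TMM (0.0529), while SESN2 and CTH passed as higher with the filter of 5 CPM (0.0172 and 0.0393). Signs turned only for members that had not passed: with the filter of 5 CPM PSPH was at 0.000556 and VLDLR at 0.00839, and without single libraries PSPH lay between -0.0674 and 0.0328, VLDLR between -0.042 and 0.0242 and SLC7A1 between -0.0492 and 0.00959. The replicate numbers are not stated to pair the libraries. Same-numbered libraries shared little deviation (correlation 0.04 over 16738 genes), which cannot show whether they were handled together. With the replicate block 2466 genes were higher and 2326 lower, with 6 and 20 of the members. With 2 libraries a group, small changes rest on the spread borrowed from all genes.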
